A study of Mus musculus with 6 samples.

Results

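The genes described here are 10 melanocyte genes that mark the intermediate cells of the stria vascularis: Tyr, Tyrp1, Dct, Pmel, Mlana, Mitf, Kit, Ednrb, Trpm1 and Slc45a2. They were chosen by name, and every probe of the array whose annotated gene symbol was on that list was taken, which gave 17 probes of 55676, for 10 of the 21893 genes named on the array. Cochlear RNA came from 3 pools of Fabp7 (-/-) knockout mice and 3 pools of Fabp7 (+/+) wild-type mice. The animals were 7-month-old females, and with 4 cochleae from 2 mice per pool each genotype is represented by 12 cochleae of 6 mice. The bony otic capsule stayed in the sample and the vestibular tissue was left out, so the stria was measured together with the organ of Corti, ganglion, ligament and bone. The strain and the construction of the knockout allele are not given in the sources used here. In such bulk samples, fewer cells of a type and less RNA per cell cannot be told apart.

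Intermediate cells are melanocytes of neural crest origin that sit between the marginal and basal cells of the stria, and their potassium channel Kcnj10 takes part in generating the endocochlear potential. Their lineage depends on the receptor tyrosine kinase Kit and the endothelin receptor Ednrb, and on the transcription factor Mitf, which switches on the pigment genes by binding short E-box motifs in their promoters. Tyr, Tyrp1 and Dct are the enzymes of melanin synthesis, Pmel forms the fibrils of the melanosome, Mlana and Slc45a2 are melanosome membrane proteins, and Trpm1 encodes a cation channel of melanocytes that is also used by retinal bipolar cells.

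The promoters of the pigment enzymes and of Trpm1 are shown because they carry those motifs and because the Trpm1 probes went apart. RefSeq promoter windows of build GRCm38.p6 were matched by symbol for 7 of the 10 genes and covered 11 annotated starts. Windows for Pmel, Mlana and Slc45a2 were not matched. The motif CATGTG was searched on both strands in the 250 bases before each start, and so was CACGTG, which reads the same on both strands. CATGTG was found in 4 of the 11 windows, each of a different gene, against 12.3% of all 32851 windows, and CACGTG in 1 of the 11, against 6.02% of all. Neither was found in the windows of Mitf (3 starts), Kit (2 starts) and Ednrb (1 start). Each sequence below is read on the strand of its gene, with up to 30 bases on either side and the motif in capitals.
Tyr, chr7:87493513-87493563, minus strand, motif beginning 21 bases before the start: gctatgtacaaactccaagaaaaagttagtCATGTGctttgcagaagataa
Tyrp1, chr4:80834137-80834202, plus strand, 46 bases before the start: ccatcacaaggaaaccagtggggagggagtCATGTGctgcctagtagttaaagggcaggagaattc
Dct, chr14:118052361-118052426, minus strand, 150 bases before the start: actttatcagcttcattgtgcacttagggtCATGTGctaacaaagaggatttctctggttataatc
Trpm1, upstream start, chr7:64153664-64153729, plus strand, 141 bases before the start: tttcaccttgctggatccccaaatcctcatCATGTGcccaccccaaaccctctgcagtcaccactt
Trpm1, downstream start, chr7:64185209-64185265, plus strand, 229 bases before the start: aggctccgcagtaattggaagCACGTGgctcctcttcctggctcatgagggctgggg
The Dct window held CATGTG a second time, on the opposite strand, 232 bases before the start. The Trpm1 starts lie 31624 bases apart, and the upstream one has CATGTG while the downstream one has CACGTG in its window. These matches are letters in the sequence and were not measured as binding sites.

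Values are raw signals of 1-colour arrays and, for the comparisons, log2 signals after subtracting the 75th percentile of the same array. The tables used hold no detection marks, so a probe was tested when it was brighter than the 40th percentile on 3 or more of the 6 arrays. Of the 17 probes, 16 passed, 14 of them on all 6 arrays, and each of the 10 genes kept at least 1 probe. The knockout check came first. Fabp7 gave raw signals of 10.9, 3.75 and 3.43 in knockout pools, against 2674, 1554 and 1860.1 in wild-type pools. The Fabp7 signal thus matched the label of all 6 pools. All 3 knockout signals were under the 40th percentile, so the size of the difference was not measured. The limma adjusted p was 0.0661 over the 33484 probes tested, and 0.0111 without knockout array 1. The 75th percentile of raw signal was 581.06 to 621 on the knockout arrays and 665 to 677 on the wild-type arrays, so raw knockout signals run low by a like factor before scaling. Pairs of arrays correlated at 0.988 to 0.994. The 25th percentile of raw signal was 3.92 to 4.69 on 5 arrays and 6.66 on wild-type array 1, which differs from the rest among dim probes.

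None of the melanocyte gene probes differed between the genotypes after adjustment over all probes. With an adjusted p under 0.05 as the threshold, limma called 0 of the 16, as it called 0 of all 33484 probes (0.0% called). At an unadjusted p under 0.05 there were 4 of 16 member probes, where 5.8% of all probes reached that level, and 3 of those 4 belong to the single gene Trpm1. Of the 4, 2 were higher (3.09% of all probes) and 2 lower (2.71% of all probes) in knockout. The groups did not overlap in 4 of 16 member probes, against 12.3% of all probes, with 2 higher (7.86% of all) and 2 lower (4.42% of all). Estimates lay below 0 for 9 of the 16, against 40.3% of all probes. Outside Trpm1, 1 of 13 probes reached an unadjusted p under 0.05 by limma, 8 lay below 0 and 5 above, and 12 differed by less than 0.5 on the log2 scale, as did 96.3% of all probes. The median change of the 16 probes was −0.07, against 0.03 over all probes tested.

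**Figure D1:**
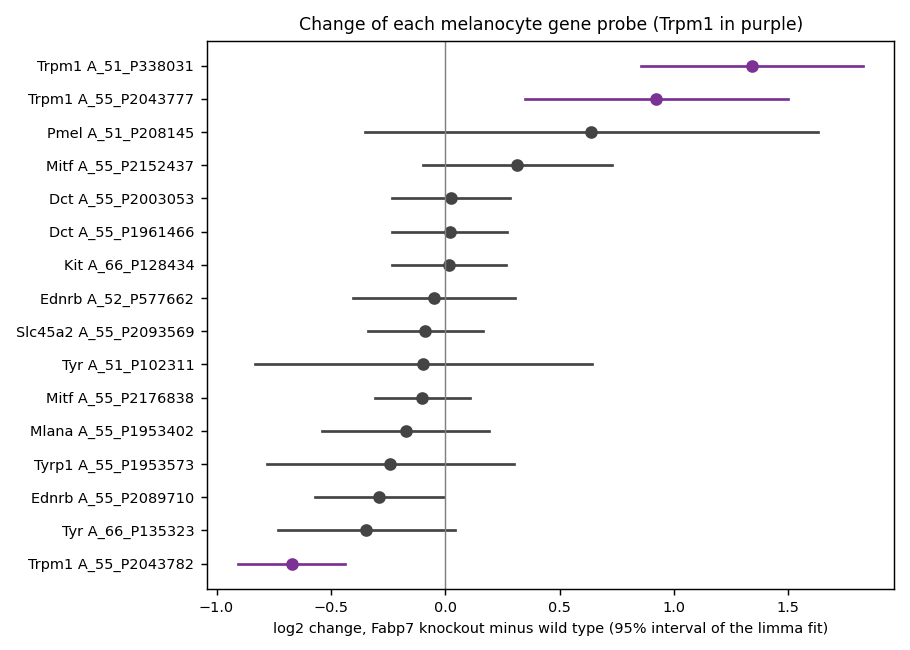
Log2 change (knockout minus wild type, x axis) of each of the 16 melanocyte gene probes that passed the filter, with the 95% interval of the limma fit as a line. The Trpm1 probes, in purple, lie at both ends of the plot, from −0.67 to 1.34, and 12 of the 13 other probes lie within 0.5 of 0.

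Among the enzymes, Dct, the dopachrome tautomerase that acts after tyrosinase, was measured most tightly. Its probe A_55_P1961466 gave raw signals of 71199, 70285 and 66112 in knockout pools, against 86384, 66526 and 75561 in wild-type pools. The knockout values lay inside the range of the wild-type values after scaling. The scaled log2 signal was 6.84 ± 0.02 in knockout and 6.82 ± 0.18 in wild type (SD, n = 3 each). The change was 0.02 with a 95% interval from −0.23 to 0.27. The second Dct probe, A_55_P2003053, gave 32784, 31306 and 28794 in knockout pools, against 38402, 29647 and 33576 in wild-type pools, and a change of 0.03 ± 0.11 (SE). The signals of both Dct probes were highest on wild-type array 1 and lowest on wild-type array 2 after scaling.

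Tyr encodes tyrosinase, the rate-limiting enzyme of melanin synthesis. Its probe A_66_P135323 gave raw signals of 345, 463 and 367 in knockout pools, against 664, 471 and 527 in wild-type pools. The raw signals did not overlap, but after scaling knockout array 2 lay above wild-type array 2. The scaled log2 signal was −0.64 ± 0.20 in knockout and −0.29 ± 0.24 in wild type (SD, n = 3 each), a change of −0.35 ± 0.16 (SE) with a limma adjusted p of 0.855. The other Tyr probe, A_51_P102311, was dim, with raw signals of 12.9, 25.8 and 25.1 in knockout pools and 20.3, 28.0 and 24.6 in wild-type pools, and lay above the 40th percentile on 4 arrays. Its change was −0.10 ± 0.30 (SE), and the sign turned with wild-type array 2 or knockout array 1 left out. Tyrp1, a tyrosinase-related melanosome enzyme, had 1 probe, with 14.7, 15.2 and 22.5 in knockout pools, against 27.0, 21.4 and 19.5 in wild-type pools. These signals straddled the 40th percentile, which they exceeded on 3 of the 6 arrays, so the change of −0.24 ± 0.22 (SE) describes a probe near the dim limit.

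Of the melanosome proteins, Mlana, a small membrane protein of early melanosomes, gave raw signals of 6401, 7881 and 7383 in knockout pools, against 10508, 7419 and 9343 in wild-type pools. Wild-type array 1 was high and knockout array 1 low, and the groups overlapped. The change was −0.17 ± 0.15 (SE), with a 95% interval from −0.54 to 0.19. Slc45a2, a melanosome membrane transporter needed for full pigmentation, gave 770.4, 867 and 758 in knockout pools, against 1068, 840.3 and 923 in wild-type pools. Its groups overlapped as well, with a change of −0.09 ± 0.10 (SE).

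Pmel, the fibril protein, was the only member outside Trpm1 with an estimate beyond 0.5, and 1 pool held that value. Its raw signals were 935, 335 and 374 in knockout pools, against 429.5, 290.4 and 339.7 in wild-type pools. Knockout array 1 was 2.38-fold above the next array after scaling, knockout array 3 lay just above the wild-type arrays, and knockout array 2 lay among them. The scaled log2 signal was −0.30 ± 0.81 in knockout and −0.94 ± 0.27 in wild type (SD, n = 3 each), a change of 0.64 ± 0.41 (SE) with a limma adjusted p of 0.855. Without knockout array 1 the change was 0.18 ± 0.19 (SE). On that array 8 of the 10 melanocyte genes had their lowest scaled signal by their brightest probe, whereas Pmel had its highest there.

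Mitf, the master transcription factor of melanocytes, had 2 bright probes. Probe A_55_P2176838 gave raw signals of 7179.7, 8423 and 7059 in knockout pools, against 9041, 9331 and 8516 in wild-type pools, and a change of −0.10 ± 0.08 (SE). Probe A_55_P2152437 gave 3163, 2513 and 1922 in knockout pools, against 2126, 2355 and 2163 in wild-type pools, and a change of 0.32 ± 0.17 (SE). Groups overlapped in each probe after scaling, and knockout array 1 was the lowest array for the first probe and the highest for the second. Mitf has several promoters that give isoforms used by melanocytes, osteoclasts, mast cells and retinal pigment epithelium, and the sources used here do not place the probes on them.

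Kit, the receptor for stem cell factor, gave 2364, 3009 and 2641 in knockout pools, against 3031, 2773 and 2945 in wild-type pools. The wild-type values lay inside the knockout range after scaling, and the change was 0.02 ± 0.10 (SE), with a 95% interval from −0.23 to 0.27. Ednrb, the receptor for endothelin 3 that guides melanoblasts, had 2 probes that differed in their groups. Probe A_52_P577662 gave 409, 526 and 538 in knockout pools, against 594, 593 and 497 in wild-type pools, with overlapping groups and a change of −0.05 ± 0.14 (SE). Probe A_55_P2089710 gave 353, 324 and 354 in knockout pools, against 529, 463 and 410.1 in wild-type pools. For this probe all 3 knockout pools lay below all 3 wild-type pools, and the change of −0.29 ± 0.11 (SE) had a limma adjusted p of 0.853. Glia and vessels also express Ednrb, and in the endothelial list all 8 genes had estimates below 0. The summed signal of that list, in units of the array's 75th percentile, was 37.6 to 43.6 in knockout and 41.8 to 48.9 in wild type. Its part in the Ednrb values was not tested.

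**Figure D2:**
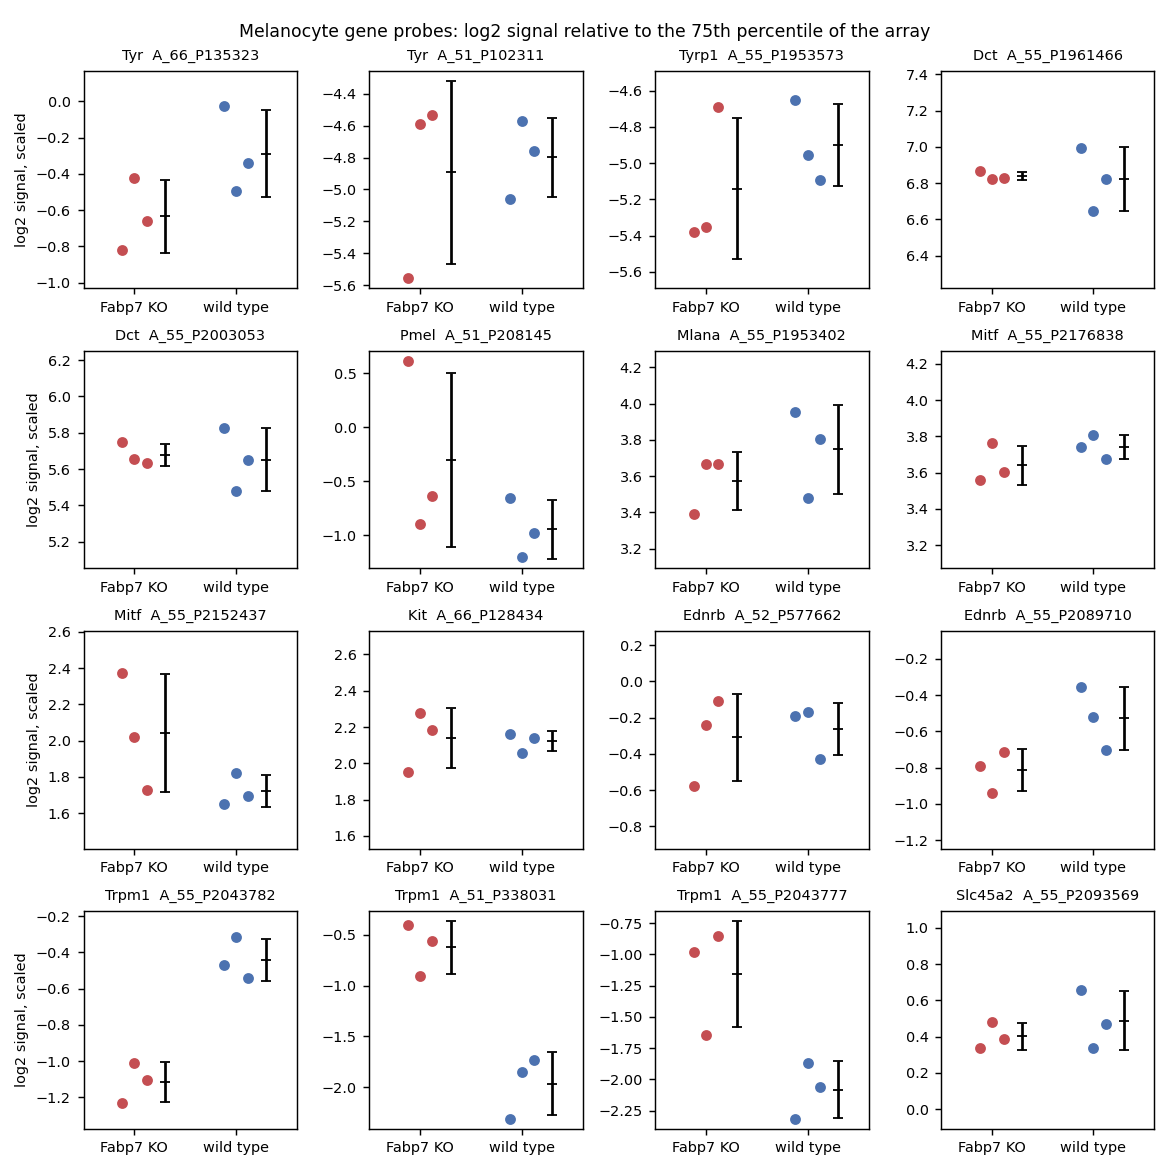
Scaled log2 signal (y axis, relative to the 75th percentile of the array) of each pool for the 16 probes that passed, with Fabp7 knockout in red on the left and wild type in blue on the right of each panel. Black bars are mean ± SD of 3 pools. The groups separate in the 3 Trpm1 panels and in the Ednrb A_55_P2089710 panel, and knockout array 1 stands alone for Pmel.

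Trpm1 was the gene whose probes gave the most distant answers among the 10, a disagreement already known when the genes were picked. Probe A_55_P2043782 gave raw signals of 260.4, 309 and 269.9 in knockout pools, against 489, 534 and 459 in wild-type pools. All 3 knockout pools lay below all 3 wild-type pools, with scaled log2 signals of −1.11 ± 0.11 in knockout and −0.44 ± 0.11 in wild type (SD, n = 3 each). The change was −0.67 ± 0.10 (SE), with a 95% interval from −0.91 to −0.44 and a limma adjusted p of 0.579.

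Probe A_51_P338031 gave the opposite order, with 463, 331 and 394 in knockout pools, against 136, 185 and 201 in wild-type pools. The scaled log2 signal was −0.62 ± 0.26 in knockout and −1.96 ± 0.31 in wild type (SD, n = 3 each), a change of 1.34 ± 0.20 (SE), or 2.54-fold, with a limma adjusted p of 0.579. A change at least this far from 0 was found in 0.173% of the probes tested. The third probe, A_55_P2043777, went the same way as the second. It gave 309.98, 199 and 322 in knockout pools, against 136, 183 and 159.9 in wild-type pools, and a change of 0.92 ± 0.23 (SE) with a limma adjusted p of 0.720. All 3 knockout pools lay above all 3 wild-type pools in both of these probes, and knockout array 2 lay closest to the wild-type pools in each.

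The fourth probe, A_55_P2037997, was above the 40th percentile on 0 arrays and was not tested. Its raw signals were 11.3, 8.35 and 15.6 in knockout pools, against 6.35, 12.4 and 6.29 in wild-type pools, and the groups overlapped. By the array's annotation it targets the same RefSeq transcript of Trpm1 as the probe that was lower in knockout. The probe with the change of 1.34 is annotated to another RefSeq transcript of Trpm1 and the probe with 0.92 to a separate cDNA. The positions of the probes along the gene, and hence which exons each reads, are not given in the sources used here. The microRNA gene Mir211 lies within Trpm1 in the RefSeq annotation, and since 0 probes are named for it, it was not analysed here.

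**Figure D3:**
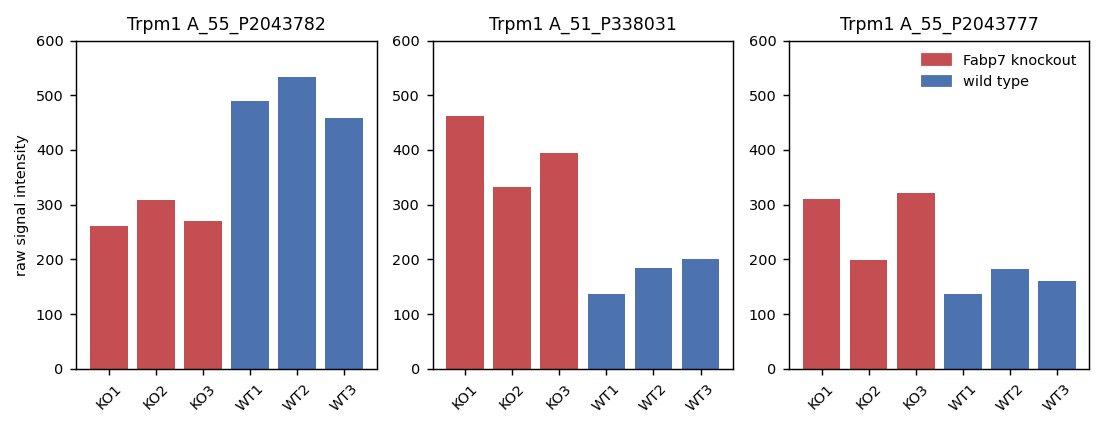
Raw signal intensity (y axis) of 3 Trpm1 probes on each array, with Fabp7 knockout in red and wild type in blue. The left probe was at 260.4 to 309 in knockout and 459 to 534 in wild type, and the middle and right probes were higher on every knockout array than on any wild-type array.

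The disagreement was set out within each array, where differences in scaling cancel. The log2 signal of A_55_P2043782 minus that of A_51_P338031 was −0.83, −0.10 and −0.55 in knockout pools, against 1.84, 1.53 and 1.19 in wild-type pools. The groups were apart by −2.01, and an exact two-sided permutation test gave p = 0.1, the smallest that 3 pools against 3 can give (0.233 adjusted over the 7 probe pairs compared). The same difference between A_55_P2043782 and A_55_P2043777 changed by −1.59 (exact permutation p = 0.1). Between the probes that were higher in knockout it changed by 0.42 (exact permutation p = 0.2). For both pairs of opposite probes the p of 0.1 was fixed in advance. Each probe alone already separated the groups, in opposite directions, so the test adds no support to the disagreement. Leaving out each array in turn moved the difference of −2.01 between −2.21 and −1.85.

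For the other genes with several probes past the filter, the probes differed less. The gap between the highest and lowest change was 0.01 for Dct, 0.24 for Ednrb, 0.25 for Tyr and 0.42 for Mitf. The within-array difference of the Mitf probes did not overlap between the groups, with an exact permutation p of 0.1. Across all 4977 named genes with at least 2 probes past the filter, the median gap was 0.12 and the 95th percentile 0.51. Of these genes, 1053 had 3 or more such probes, as Trpm1 had, and further probes can only widen a gap. Dct, Ednrb, Tyr and Mitf had fewer than Trpm1. Trpm1, at 2.01, ranked 3, after Ttn, the giant muscle protein titin (−3.04 to 2.51 over 3 probes), and Foxo3, a forkhead transcription factor (−2.36 and 1.29). A probe higher and another lower, each at an unadjusted p under 0.05 by limma, occurred in 8 genes of the 4977 (0.161%), Trpm1 among them. Groups that did not overlap, higher by 1 probe and lower by another, occurred in 37 genes (0.743%), Trpm1 among them too. Ttn and Foxo3 are named for their rank, after their values were seen.

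**Figure D4:**
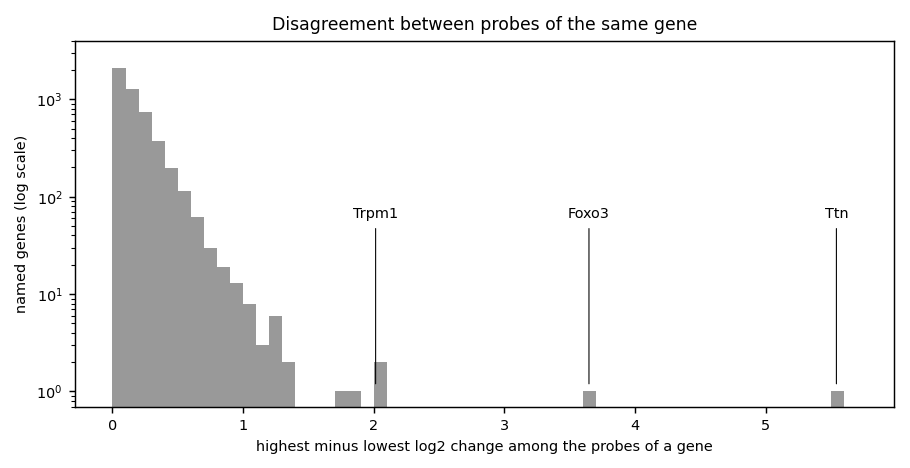
Number of named genes (y axis, log scale) by the gap between the highest and lowest log2 change of their probes (x axis), for the 4977 genes with at least 2 probes past the filter. Trpm1 lies at 2.01, with Foxo3 and Ttn beyond it, while the median gene is at 0.12.

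Covariation across the 6 pools was examined for the brightest probe of each gene, which makes 45 pairs of genes. Wild-type array 1 had the highest scaled signal for 5 of the 10 genes (Tyr, Tyrp1, Dct, Mlana and Slc45a2), and knockout array 1 the lowest for 8, all but Dct and Pmel. The only Tyrp1 probe was above the 40th percentile on 3 of the 6 arrays, so its order and its pairs describe a probe near the dim limit. The orders also depend on the probe chosen. By its other probe Tyr was again lowest on knockout array 1, but Ednrb was lowest on knockout array 2. Mitf A_55_P2152437 and Trpm1 A_51_P338031 were highest on knockout array 1. Mlana and Slc45a2 varied together, at Pearson r = 0.91 (exact permutation p = 0.00972, n = 6) and Spearman rho = 0.83 (exact permutation p = 0.0583). Tyr and Slc45a2 were at r = 0.91 (exact permutation p = 0.0153) and rho = 0.89 (exact permutation p = 0.0333), and Tyr and Mlana at r = 0.88 (exact permutation p = 0.0278) and rho = 0.83 (exact permutation p = 0.0583). None passed after adjustment over the 45 pairs, where each had an adjusted permutation p of 0.312 for r and 0.375 for rho.

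These relations leaned on the first pool of each genotype. Without knockout array 1 and wild-type array 1, which lay farthest from the median, r was 0.79 for Mlana with Slc45a2, 0.64 for Tyr with Slc45a2 and 0.41 for Tyr with Mlana. With the group means taken out, r over the 6 arrays was 0.89, 0.96 and 0.87 for the same pairs. An r of at least 0.8 was found in 3 of the 45 pairs (6.67%), against 4.74% of all pairs of the 16143 named genes, and the median r was 0.37, against 0.02 over all pairs. Pmel had an r below 0 with 8 of the 9 other genes, the exception being Dct at r = 0.42 (exact permutation p = 0.343) and rho = 0.83 (exact permutation p = 0.0583, 0.375 adjusted). Its lowest r was with Mitf, −0.79 (exact permutation p = 0.0278, 0.312 adjusted; rho = −0.83, exact permutation p = 0.0583), and was −0.30 without knockout array 1 and wild-type array 2, the arrays farthest from its median. That r is for Mitf probe A_55_P2176838 alone. The other Mitf probe, A_55_P2152437, was highest on knockout array 1, as Pmel was, and its r with Pmel was not computed. The other negative r values of Pmel were also recomputed without knockout array 1 and a wild-type array (1 for Tyr and Tyrp1, otherwise 2). They turned above 0 for Ednrb (0.90), Tyrp1 (0.37), Slc45a2 (0.19) and Mlana (0.18). They stayed below 0 for Tyr (−0.56), Trpm1 (−0.19) and Kit (−0.14), so the signs depend in part on those arrays. The Dct probes followed each other at r = 0.98 (exact permutation p = 0.00694, 0.0243 adjusted over 7 probe pairs) and rho = 0.83 (exact permutation p = 0.0583), and r was 0.93 without the 2 wild-type arrays farthest from the median. Between the Trpm1 probes no pooled correlation is given, because the genotypes form separate clusters. The brightest Trpm1 probe is among the 45 gene pairs, with an r of −0.69 with Pmel. Its genotypes are apart as well, so its pooled r values also hold that difference.

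**Figure D5:**
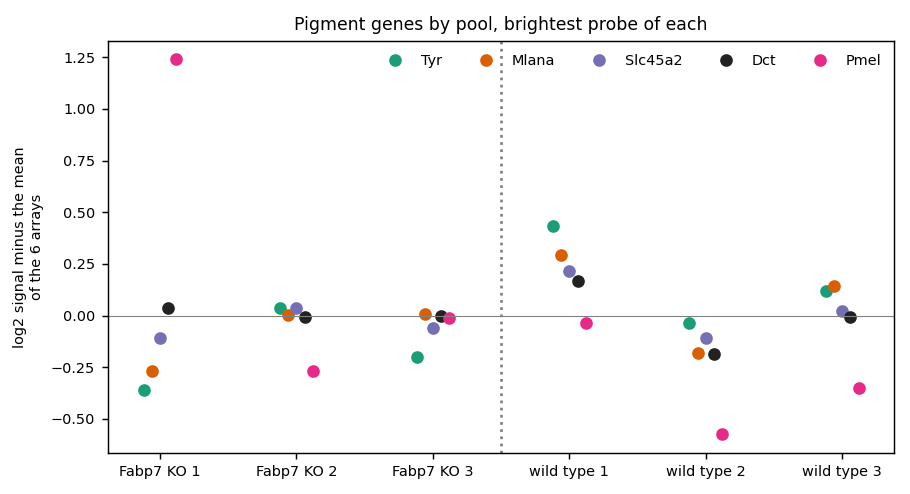
Log2 signal minus the mean of the 6 arrays (y axis) for the brightest probe of Tyr, Mlana, Slc45a2, Dct and Pmel in each pool (x axis), with Fabp7 knockout on the left. Wild-type array 1 is above 0 for every gene shown except Pmel, and Pmel lies 1.24 above its mean on knockout array 1.

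The pattern of the pigment genes over the pools was summarised as the mean centred log2 signal of Tyr, Dct, Pmel, Mlana and Slc45a2, the pigment genes above the 40th percentile on all 6 arrays, which was 0.11, −0.04 and −0.05 in knockout pools, against 0.21, −0.22 and −0.01 in wild-type pools. Of 16133 other named genes, those closest to it over the 6 arrays were Gcgr, the glucagon receptor (r = 0.99), Pir, an iron-binding nuclear protein (r = 0.99), Fgd4, an exchange factor for Cdc42 (r = 0.99), 9330101J02Rik (r = 0.98) and Lrch3 (r = 0.98). With 6 arrays and so many genes, values this high are the top of a long list and are given as a description. Gcgr, 9330101J02Rik and Lrch3 were also dim, with raw signals of 48.2 to 92.3, 24.4 to 104.8 and 47.7 to 68.0. Each was highest on wild-type array 1, the array that differs from the rest among dim probes. The profile on knockout array 1 rests on Pmel, at 1.24 there. On that array Dct was at 0.04, Tyr at −0.36, Mlana at −0.27 and Slc45a2 at −0.11. The closeness of these genes to the profile thus depends in part on 1 pool of Pmel.

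The other genes of the pigment pathway, 55 in 3 lists, likewise held none past the adjusted threshold. Of the 49 with a probe past the filter, 0 were called by limma after adjustment, 1 was higher (2.42% of named genes) and 1 lower (2.3% of named genes) at an unadjusted p under 0.05, a level that 4.73% of named genes reached in either direction. With each array left out, the number at an unadjusted p under 0.05 was 0 to 4, being 0 without knockout array 1 or 2 or wild-type array 1 and 4 without knockout array 3. Estimates were above 0 for 25 and below for 24, and the median change was 0.02, against 0.03 over the 16143 named genes.

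Among other melanosome enzymes and transporters, 13 of 15 passed the filter, with 4 above 0 and 9 below and a median of −0.03. The exchanger Slc24a5 was at −0.24 ± 0.17 (SE), the melanosome transport GTPase Rab27a at −0.32 ± 0.25, the synaptotagmin Syt4 at −0.32 ± 0.15 and the melanosome receptor Gpr143 at 0.08 ± 0.09. Oca2 and Tpcn2 did not pass. Among the sorting complexes that carry cargo to melanosomes, all 19 passed, with 12 above 0 and 7 below. The dysbindin Dtnbp1 was at 0.19 ± 0.06 (SE), but at −0.03 by its other probe, with Bloc1s4 at −0.27 ± 0.13, Bloc1s2 at 0.12 ± 0.07 and the AP-3 subunit Ap3m1 at −0.10 ± 0.07.

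Among ligands, receptors and factors of the lineage, 17 of 21 passed, with 9 above 0 and 8 below. Bcl2, the survival factor that melanocyte stem cells need, gave raw signals of 1395, 1660.02 and 1757 in knockout pools, against 2419, 2157 and 2102 in wild-type pools. All knockout pools lay below all wild-type pools, with a change of −0.33 ± 0.12 (SE) and a limma adjusted p of 0.834. Of all probes tested, 12.3% had groups that did not overlap, and 4.42% were lower in this way. Hgf, the ligand of the receptor Met, was at 0.16 ± 0.07 (SE), the transcription factor Pax3 at −0.25 ± 0.16 and the endothelin-converting enzyme Ece1 at 0.16 ± 0.10. By the brightest probe of each gene, Bcl2 was not alone in the 3 lists. Groups did not overlap for Syt4 and Ap3m1, lower in knockout, or for Hgf, Dtnbp1, Vps33a and Hps3, higher in knockout. Vps33a and Hps3 are named after their values were seen. The Kit ligand Kitl was at −0.05 ± 0.15 and Sox10, which acts upstream of Mitf, at −0.06 ± 0.12, both named after their values were seen, because they act directly on members. Edn3, Mc1r and Tfap2b did not pass, and 0 probes were named for Asip.

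The label of the cells was set against markers that are not members. All 7 further intermediate cell markers passed the filter, with 3 above 0 and 4 below and a median change of −0.03. Among them, named after their values were seen, were Kcnj10 at −0.12 ± 0.08 (SE), Kcnj13 at 0.22 ± 0.09 and Gpnmb, a melanosome glycoprotein also made by macrophages and osteoclasts, at −0.03 ± 0.09. Met was at 0.22 ± 0.15 and Nrp2 at −0.06 ± 0.07. Cd44 was at −0.22 ± 0.12, with its 4 probes from −0.22 to 0.30. The summed signal of the 7, in units of the array's 75th percentile, was 528 to 561 in knockout and 479 to 527 in wild type, and the groups came close without overlapping. That sum follows its brightest probe, of Ptgds, the prostaglandin D synthase, at 0.15 ± 0.07. By the brightest probe of each gene, the groups did not overlap for Kcnj10, lower in knockout, or for Kcnj13 and Ptgds, both higher. Over all probes tested, 12.3% did not overlap. The sum over the 10 melanocyte genes was 147 to 148 in knockout and 133 to 166 in wild type. Marginal cell markers, 9 of 10 past the filter (all but Kcne1), summed to 134 to 147 in knockout and 116 to 130.3 in wild type, and these groups did not overlap either. Basal cell markers, 6 of 6, summed to 115 to 125 in knockout and 110.5 to 123 in wild type.

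Markers of other cells, among them cells that use Kit, Mitf, Ednrb or Sox10, were summed in the same way. Mast cell markers, 6 of 9 past the filter, summed to 9.36 to 12.5 in knockout and 9.69 to 14.7 in wild type, with Ms4a2, Tpsab1 and Mrgprb1 not past it. Osteoclast markers, 8 of 8, summed to 204 to 239 in knockout and 184 to 269.6 in wild type, and red cell precursor markers, 7 of 8, to 1290.3 to 1310.4 in knockout and 1116 to 1337 in wild type. Glial markers, 6 of 9, summed to 68.5 to 74.0 in knockout and 65.6 to 86.9 in wild type, with the top value on wild-type array 1, the array on which 5 of the melanocyte genes also peaked. Keratinocyte markers, 5 of 6, summed to 6.89 to 7.68 in knockout and 7.11 to 8.09 in wild type, and vestibular markers, 3 of 4, to 0.643 to 0.935 in knockout and 0.344 to 0.984 in wild type. The keratinocyte sum follows its brightest probe, of Trp63, while Krt5 gave raw signals of 22.5 to 76.0 and Krt1 did not pass. The vestibular sum follows Tectb, with Oc90 at raw signals of 9.91 to 23.7. These genes are named after their values were seen, and neither sum shows that such cells were present. The part of any of these cells in the levels of Kit, Mitf and Ednrb was not tested.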

How the data were processed

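Per the labels' protocols, total RNA of pooled cochleae was labelled with Cy3, and Agilent Feature Extraction 10.7 is listed in the submitters' processing notes. For every array, per the file headers, the authors deposited a linear raw intensity for each probe. The authors also deposited a log2 matrix, which equalled the log2 raw signal minus a constant per array to within 1.2e-06. The sources used here do not say how background was handled. Here each log2 signal had the 75th percentile of its array subtracted. Probes above the 40th percentile on at least 3 arrays, 33484 of 55676, were fitted with limma 3.58.1 (R 4.3.3; lmFit, eBayes, no covariates), each probe on its own, and adjusted by Benjamini-Hochberg over all of them. Permutation tests used SciPy 1.17.1. The fit was tested on simulated data. Symbols came from the platform annotation, in which 30625 probes had 1 symbol, 25051 none and 0 several, and all 17 member probes were found by gene ID in RefSeq. For lists, the brightest probe past the filter stood for a gene. Named genes were all members, Fabp7, up to 4 of each other pigment list with the lowest unadjusted p, and the 5 closest to the pigment profile; others are marked where named. The members and lists were chosen with earlier results of these data known. Alternatives covered scaling, value source, filter, probes of a gene, spread model, replicate number and each array left out. With 3 arrays a group, the number of arrays limits the precision. Deviations from group means of same-numbered arrays correlated at −0.14, −0.04 and −0.16. These values gave no sign that the numbers pair the pools, but 3 arrays a group cannot exclude it.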

Additional observations from a re-analysis of the deposited data

How the results depend on the processing

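After adjustment, 0 member probes were called under the 17 alternatives run for them, and 0 listed pigment genes under the 7 run for those (quantile normalization and each array left out). The count of member probes at an unadjusted p under 0.05, 4 in the fit reported, was 1 with only the brightest probe per gene and 1 with averaged probes (fewer features tested), and 3 to 5 with each array left out. For the pigment lists that count, 2, ranged from 0 to 4 with each array left out, being 0 without knockout arrays 1 or 2 or wild-type array 1, 4 without knockout array 3 and 1 without wild-type array 3. Pairs of genes with r of at least 0.8, 3 as reported, were 6 with quantile normalization. The Trpm1 probe A_55_P2043782 was at 0.53, against −0.67 as reported, when the probes of Trpm1 were averaged, since that mean includes the opposite probes, and Mitf A_55_P2176838 was at 0.11 in the same way. The Trpm1 probes A_51_P338031 and A_55_P2043777 stayed between 1.05 and 1.48 and between 0.62 and 1.17. Estimates near 0 changed sign, and the cause was not tested. With the 40th percentile of each array as a floor, Tyr A_51_P102311 was at 0.063 and Tyrp1 at 0.0058. With array weights, Tyr A_51_P102311 was at 0.051 and Ednrb A_52_P577662 at 0.072. With quantile normalization, Dct A_55_P1961466 was at −0.044. With each array left out, Tyr A_51_P102311 ranged from −0.28 to 0.24, Dct A_55_P1961466 from −0.069 to 0.11, Dct A_55_P2003053 from −0.061 to 0.11, Kit from −0.051 to 0.11 and Ednrb A_52_P577662 from −0.15 to 0.085. Fabp7 ranged from −8.95 to −8.15 with each array left out, and its limma adjusted p was 0.0111 at −8.95, without knockout array 1. These are fitted values against knockout signals under the 40th percentile, not measured sizes. The Trpm1 probe difference ranged from −2.21 to −1.85. With the replicate block, 0 member probes were called and 4 were at an unadjusted p under 0.05 by limma, the 3 Trpm1 probes and Pmel, while Ednrb A_55_P2089710 was not. Normexp and a slide or scan block were not run, because the tables hold no background, slide or scan columns. Without detection marks, dim probes (Tyrp1, the second Tyr probe) have no measured background to set them against.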
